A study of Mus musculus with 23 samples.

Results

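The major histocompatibility complex (MHC) class I genes of mouse small intestine were followed here in mice given busulfan and then saline or fecal microbiota transplantation (FMT). The genes were B2m, H2-D1, H2-K1, H2-T23, H2-T3, H2-T22, H2-T10, H2-T24, H2-Q2 and H2-Bl, which are 10 of the 19215 entries of the expression table. They were selected on their values in these same libraries, as several of them varied widely between mice of 1 group. Their spread, their levels and their correlations are therefore given as description, and the tests below are not independent evidence. All 10 genes reached the mean of 1 FPKM that was required for testing, as did 11337 genes in all. FPKM is a level corrected for the length of the transcript and for the number of fragments mapped in the library.

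Male ICR mice, an outbred stock, received a single busulfan dose of 40 mg/kg, an alkylating drug toxic to dividing cells. Recipients of FMT were gavaged with the pooled luminal contents of donor mice that had been dosed with vehicle (Con-FMT) or with alginate oligosaccharides (AOS) at 10 mg/kg (A10-FMT) or 100 mg/kg (A100-FMT). Mice of the Sa group were given saline in place of FMT. All groups therefore shared the busulfan dose, and no untreated mice were among the libraries used here. The paper's methods place busulfan at 3 weeks of age, FMT daily for 1 week and sampling at 5 weeks of age. The 23 libraries, 1 per mouse, carry 2 codes whose meaning is not given, called set 1 and set 2 here, and whether that schedule holds for both is not stated. The label codes IMC, IMA10 and IMA100 were read as Con-FMT, A10-FMT and A100-FMT by their likeness to codes in the paper's supplementary files. There were 8 groups of 3 mice each, apart from Sa of set 1, which had 2. P-values measure the spread between these mice, and since the donors' contents were pooled, donors are not replicated.

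The enterocyte markers (Vil1, Fabp2, Fabp1, Apoa1, Apoa4, Alpi, Sis, Lct, Anpep and Epcam) were present in every library, with a summed level of 5985 to 15753 FPKM. Summed levels were 35.5 to 208 FPKM for T and intraepithelial lymphocytes (7 of 8 markers in the table), 4.37 to 27.6 FPKM for 5 pan-leukocyte markers, 1.03 to 2.76 FPKM for B and plasma cells and 0.81 to 2.01 FPKM for smooth muscle. The library of Sa replicate 3 in set 1 stood apart: its correlation with each other library was 0.944 to 0.965, against 0.968 to 0.991 for the 231 pairs among the others. Its title and its description also name different columns of the table. Values were read from the title's column. Some of those that rest on this library are also given without it, which leaves 1 mouse in Sa of set 1.

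Class I molecules are heavy chains that, in most cases together with the light chain beta-2 microglobulin, display short peptides or other ligands at the cell surface. The classical heavy chains, H2-K and H2-D in mice, present peptides from the cell's own proteins to CD8 T cells. Non-classical chains of the H2-Q and H2-T regions vary less between individuals in most cases and are read by natural killer receptors, gamma delta T cells or intraepithelial lymphocytes, which lie between the enterocytes. In the intestine, the H2-T3 product (thymus leukemia antigen) is known as a ligand of the CD8 alpha homodimer of intraepithelial lymphocytes.

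B2m lies on chromosome 2, at chr2:122147687-122153082, and the other genes lie in the H2 complex of chromosome 17 (GRCm38, the same sequence as mm10). In order they were H2-K1 at chr17:33996012-34000619, H2-D1 at chr17:35263094-35267497, H2-Q2 at chr17:35342307-35346764, H2-T24 at chr17:36003471-36020800, H2-T23 at chr17:36029977-36032701, H2-T22 at chr17:36037128-36042742, H2-Bl at chr17:36080110-36084249, H2-T10 at chr17:36115871-36121444 and H2-T3 at chr17:36185571-36190151. RefSeq annotates H2-Bl and H2-T10 as transcribed pseudogenes and the others as protein coding.

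Several members of the family resemble each other closely, which bears on their FPKM values, since reads from a stretch that 2 genes share cannot be assigned to 1 of them. The closest pair was H2-T22 and H2-T10, whose coding sequences were 1137 bases each in GENCODE M21 and were identical at 1099 of 1134 aligned bases (96.9%). Of the stretches of 50 bases in the H2-T22 transcript, 33.6% also occurred in the H2-T10 transcript, and of stretches of 100 bases 9.81% did. For H2-D1, 5.31% of the stretches of 50 bases were shared with H2-K1 and 4.92% with H2-T23, while B2m and H2-Bl shared no stretch of 50 bases with another member. How the authors' counting treated reads with several matches is not given in the sources used here. The first pair of lines below shows 90 coding bases of H2-T22 and H2-T10 where they differ most, at 9 bases in capitals, and the last line shows 90 bases that the genes share without a difference. The differing windows are chr17:36040613-36040702 and chr17:36119324-36119413, and the shared ones chr17:36041968-36042057 and chr17:36120715-36120804, all on the minus strand.
H2-T22, most different: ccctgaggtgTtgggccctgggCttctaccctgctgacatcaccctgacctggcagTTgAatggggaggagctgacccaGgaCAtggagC
H2-T10, most different: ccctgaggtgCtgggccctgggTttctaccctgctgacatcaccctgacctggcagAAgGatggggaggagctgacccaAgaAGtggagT
H2-T22 and H2-T10, identical: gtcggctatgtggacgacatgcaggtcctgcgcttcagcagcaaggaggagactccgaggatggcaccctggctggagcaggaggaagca

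Classical class I promoters are textbook targets of interferon and of NF-kappa B. The RefSeq table (GRCm38.p6) held a promoter window of 300 bases for 7 of the 10 members: B2m, H2-D1, H2-K1, H2-T23, H2-T3, H2-T22 and H2-Q2. On both strands, GAANNGAAA (a core of the interferon-stimulated response element, N being any base) and GGGGATTCC (a kappa B core) were each found in the windows of H2-D1 and H2-K1, and the motifs did not overlap. Among 27025 promoters of this length, 7.56% held GAANNGAAA and 0.259% held GGGGATTCC. No match in the other windows says only that these letters are not there. The stretches around the motifs are shown because H2-D1 and H2-K1 were identical in them at 59 of 60 bases, with the motifs in capitals and GAANNGAAA read on the opposite strand. They lie at chr17:35262913-35262972 on the plus strand and at chr17:34000409-34000468 on the minus strand.
H2-D1: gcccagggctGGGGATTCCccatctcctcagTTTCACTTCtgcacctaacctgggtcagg
H2-K1: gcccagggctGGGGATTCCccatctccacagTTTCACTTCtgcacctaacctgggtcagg

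By mean level over the 23 libraries, B2m (1352 FPKM) and H2-D1 (1182 FPKM) came first, followed by H2-K1 (259 FPKM) and H2-T23 (105 FPKM). H2-Q2 (28.6 FPKM), H2-Bl (27.6 FPKM), H2-T3 (20.6 FPKM), H2-T22 (16.97 FPKM) and H2-T10 (16.2 FPKM) formed the middle, and H2-T24 was lowest at 3.71 FPKM. Neighbours in this order overlapped in their ranges over the libraries, except H2-D1 with H2-K1 and H2-T23 with H2-Q2. B2m ranked 35 and H2-D1 ranked 52 among the genes of the table.

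The members split by their spread between mice of 1 group. The standard deviation within groups, on the log2(FPKM + 1) scale, was 0.097 for B2m and 0.16 for H2-D1, against a median of 0.12 over all genes tested. It was 0.32 for H2-K1, 0.41 for H2-T10, 0.44 for H2-T23, 0.49 for H2-Q2 and 0.71 for H2-T24. The widest were H2-T22 at 1.23, H2-Bl at 1.35 and H2-T3 at 1.74, and of the 4078 tested genes within 2-fold of the level of H2-T3, 99.83% had a smaller value. These last 3 genes all lie in the H2-T region.

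**Figure D1:**
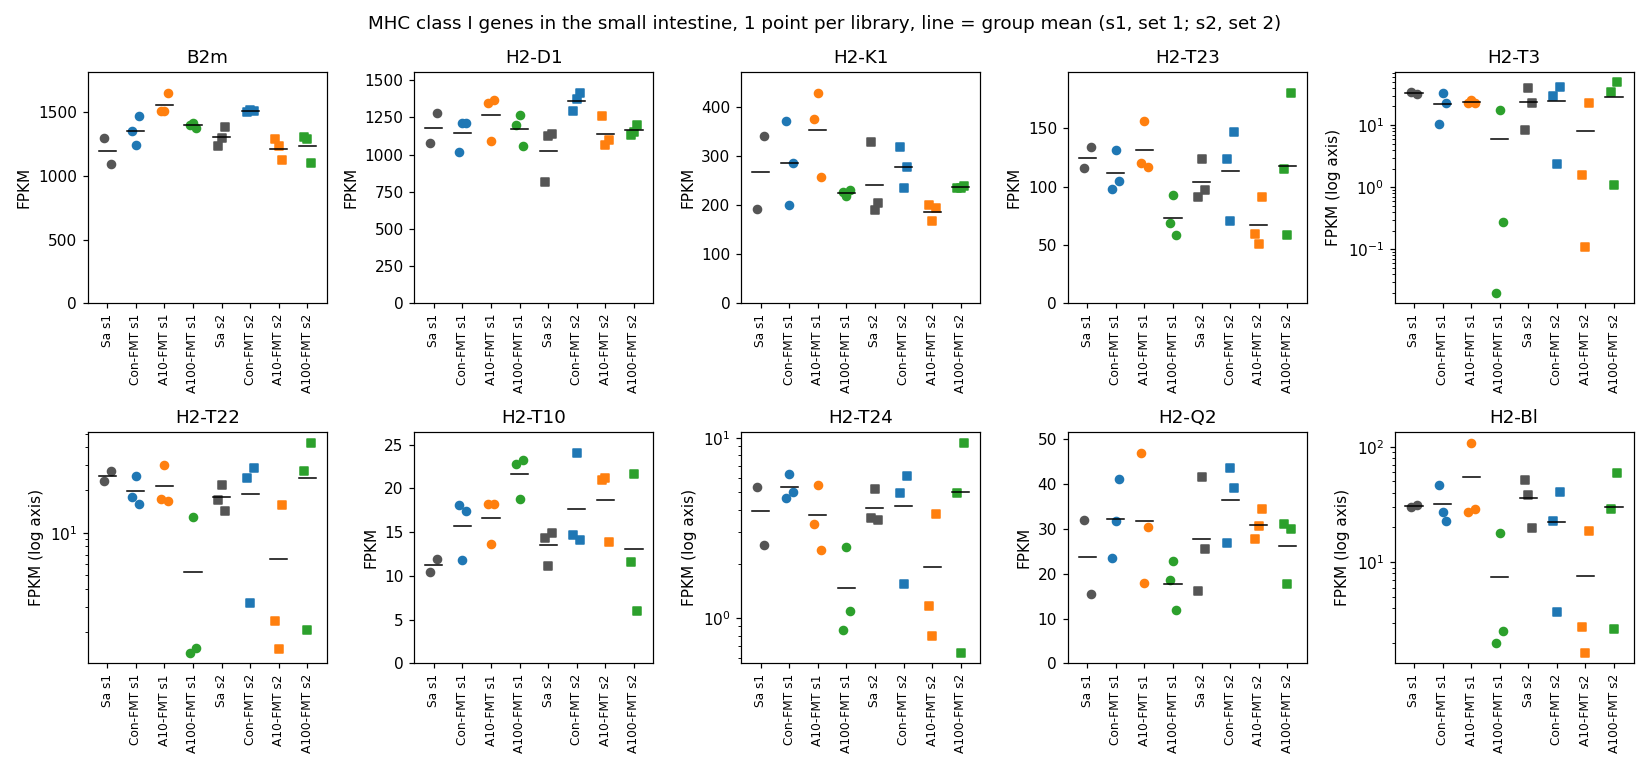
FPKM of the 10 class I genes (vertical axis, log scale for H2-T3, H2-T22, H2-T24 and H2-Bl) in the 8 groups, with 1 point per library and a line at each group mean. B2m stayed between 1092 and 1651 FPKM, whereas H2-T3 ran from 0.02 to 48.9 FPKM and fell far below its other values in 6 libraries.

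B2m, the light chain, had its lowest and its highest library in set 1. Its level in set 1 was 1299 and 1092 FPKM in Sa, 1351, 1243 and 1471 FPKM in Con-FMT, 1511, 1513 and 1651 FPKM in A10-FMT and 1399, 1416 and 1376 FPKM in A100-FMT. The set 2 levels were 1232, 1300 and 1380 FPKM in Sa, 1500, 1520 and 1508 FPKM in Con-FMT, 1286, 1236 and 1122 FPKM in A10-FMT and 1303, 1290 and 1103 FPKM in A100-FMT. A10-FMT thus lay above Sa and Con-FMT without overlap in set 1, and below Con-FMT without overlap in set 2.

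The FMT groups were set against Sa and against each other to see how the class I genes differed with the donor's treatment. B2m was the only member called at an adjusted p of 0.05. In Sa vs. A10-FMT of set 1 it rose in A10-FMT by 0.39 on the log2 scale (SE 0.090, limma adjusted p = 0.0049), in a comparison where 32% of all genes tested were called. Without Sa replicate 3 the difference was 0.26 (limma adjusted p = 0.11), and with the column named in the description it was 0.30 (limma adjusted p = 0.0078). The call also ended with array quality weights (0.38, limma adjusted p = 0.65) and in a fit of these groups alone (0.39, limma adjusted p = 0.31). With the description's column, H2-D1 (0.39, limma adjusted p = 0.037) and H2-K1 (1.04, limma adjusted p = 0.0044) were called too. The share of all genes called in that fit is not given here. In Con-FMT vs. A10-FMT, B2m was 0.20 higher in A10-FMT of set 1 (SE 0.081, limma adjusted p = 0.092) and 0.32 lower in A10-FMT of set 2 (log2 -0.32, limma adjusted p = 0.089).

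When the difference between the sets was itself tested, the change of B2m with A10-FMT was called, though not under every alternative. Set 2 minus set 1 was -0.49 for A10-FMT against Sa (SE 0.12, limma adjusted p = 0.0068, 28.4% of all genes called) and -0.52 for A10-FMT against Con-FMT (SE 0.11, limma adjusted p = 0.0046, 20.8% called). Both comparisons share the A10-FMT libraries. Without Sa replicate 3 of set 1, the former was -0.36 (limma adjusted p = 0.048). The former was not called with array quality weights (-0.51, limma adjusted p = 0.296), nor the latter with quantile normalization (-0.43, limma adjusted p = 0.0747). With the description's column, H2-K1 was also called, at -1.36 against Sa (limma adjusted p = 0.0042) and -0.88 against Con-FMT (limma adjusted p = 0.034). From the title's column these were -0.76 and -0.88 (limma adjusted p = 0.12 and 0.074). The description's column also gave calls of H2-T23 and H2-Bl for A100-FMT against A10-FMT (limma adjusted p = 0.041 and 0.043). The share of all genes called in that fit is not given here. In A10-FMT the summed enterocyte markers also differed between the sets. They were 12955 to 15753 FPKM in A10-FMT of set 1, above the 7271 to 11932 FPKM of the other groups of that set. In A10-FMT of set 2 they were 5985 to 7845 FPKM, below the 8747 to 10774 FPKM of the other groups there. B2m did not follow them in every group. In set 2 its mean was 1232 FPKM in A100-FMT, with markers at 8747 to 9772 FPKM, and 1215 FPKM in A10-FMT, where it overlapped with Sa. Over all libraries, Fabp2 ran from 661 to 2987 FPKM and Apoa1 from 1030 to 4159 FPKM. Vil1 (592 to 914 FPKM) and Epcam (857 to 1050 FPKM) ranged less, so the markers did not move as 1. Summed distal markers (Fabp6, Slc10a2 and Fgf15) in A10-FMT were 931 to 1232 FPKM in set 1 and 391 to 757 FPKM in set 2, overlapping other groups. The part of enterocytes in the B2m values was not tested, and in whole tissue fewer cells of a type and less RNA per cell cannot be told apart.

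H2-D1 carries one of the classical heavy chains. It was 1078 and 1281 FPKM in Sa of set 1, 1016, 1212 and 1210 FPKM in Con-FMT, 1348, 1094 and 1365 FPKM in A10-FMT and 1198, 1265 and 1055 FPKM in A100-FMT. Levels in set 2 were 819, 1126 and 1136 FPKM in Sa, 1291, 1371 and 1415 FPKM in Con-FMT, 1259, 1061 and 1096 FPKM in A10-FMT and 1134, 1154 and 1199 FPKM in A100-FMT. The groups of set 1 overlapped, and in set 2 Con-FMT lay above all other groups. That difference from Sa was 0.42 on the log2 scale (SE 0.12) and did not pass the test (limma adjusted p = 0.41), with 0.0353% of all genes called there.

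H2-K1, the other classical heavy chain, varied more. It was 192 and 342 FPKM in Sa of set 1, 372, 200 and 285 FPKM in Con-FMT, 376, 429 and 257 FPKM in A10-FMT and 228, 218 and 231 FPKM in A100-FMT. In set 2 it was 328, 190 and 205 FPKM in Sa, 319, 236 and 278 FPKM in Con-FMT, 200, 167 and 194 FPKM in A10-FMT and 236, 236 and 239 FPKM in A100-FMT. The A100-FMT mice of either set lay within a few percent of each other, and those of Sa did not. A100-FMT minus A10-FMT in set 1 was -0.62 (SE 0.24, limma adjusted p = 0.14) and A10-FMT minus Con-FMT in set 2 was -0.56 (SE 0.24, limma adjusted p = 0.36), without overlap in both. Over the 23 libraries, the deviations of H2-K1 and H2-D1 from the group means had an r of -0.441.

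H2-Q2 is a non-classical gene beside H2-D1. Its level was 32.0 and 15.5 FPKM in Sa of set 1, 23.5, 31.8 and 41.1 FPKM in Con-FMT, 46.9, 17.8 and 30.5 FPKM in A10-FMT and 18.5, 22.9 and 11.99 FPKM in A100-FMT. The set 2 levels were 16.1, 41.6 and 25.6 FPKM in Sa, 26.8, 43.6 and 39.1 FPKM in Con-FMT, 27.7, 30.6 and 34.5 FPKM in A10-FMT and 31.1, 17.6 and 29.9 FPKM in A100-FMT. A100-FMT of set 1 lay below Con-FMT without overlap, by -0.83 on the log2 scale (SE 0.37, limma adjusted p = 0.41), where 0.406% of all genes were called.

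H2-T3, the thymus leukemia antigen gene, was nearly absent from some mice and well expressed in others of the same group. In set 1 its level was 34.3 and 32.2 FPKM in Sa, 10.3, 32.7 and 22.8 FPKM in Con-FMT, 22.5, 25.7 and 22.9 FPKM in A10-FMT and 0.02, 17.4 and 0.28 FPKM in A100-FMT. Levels in set 2 were 8.31, 39.9 and 23.1 FPKM in Sa, 29.5, 2.34 and 40.5 FPKM in Con-FMT, 1.55, 0.11 and 22.6 FPKM in A10-FMT and 34.3, 1.08 and 48.9 FPKM in A100-FMT. The 6 lowest libraries, at 0.02 to 2.34 FPKM, were A100-FMT replicates 1 and 3 of set 1, A100-FMT replicate 2, A10-FMT replicates 1 and 2 and Con-FMT replicate 2 of set 2. The next library had 8.31 FPKM. None of the 6 was a Sa mouse of either set, and none came from Con-FMT or A10-FMT of set 1. Sa had only 2 mice in set 1 and 3 in set 2, and H2-T3 was chosen on these values, so this is description only.

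H2-T22, whose product is known as a ligand of gamma delta T cell receptors, was lowest in the same 6 libraries. In set 1 its level was 23.2 and 27.2 FPKM in Sa, 17.99, 24.97 and 16.02 FPKM in Con-FMT, 17.3, 29.8 and 16.8 FPKM in A10-FMT and 1.42, 12.9 and 1.55 FPKM in A100-FMT. In set 2 it was 17.1, 21.8 and 14.3 FPKM in Sa, 24.2, 3.17 and 28.6 FPKM in Con-FMT, 2.37, 1.51 and 15.8 FPKM in A10-FMT and 27.2, 2.05 and 43.2 FPKM in A100-FMT. No library lay between 3.17 and 12.9 FPKM.

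H2-Bl (known as blastocyst MHC) showed the same gap, with 1.64 to 3.74 FPKM in the 6 libraries and 17.9 to 108 FPKM in the 17 others. In set 1 it was 30.3 and 31.3 FPKM in Sa, 46.8, 27.2 and 22.8 FPKM in Con-FMT, 27.2, 108 and 28.9 FPKM in A10-FMT and 2, 17.9 and 2.52 FPKM in A100-FMT. The set 2 levels were 51.1, 38.1 and 19.8 FPKM in Sa, 22.9, 3.74 and 40.7 FPKM in Con-FMT, 2.77, 1.64 and 18.5 FPKM in A10-FMT and 28.8, 2.64 and 59.2 FPKM in A100-FMT. H2-T24, a low gene, was at 0.64 to 1.54 FPKM in the 6 libraries and at 2.40 to 9.43 FPKM in the others.

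H2-T23 encodes Qa-1, which presents leader peptides of other class I chains to CD94/NKG2 receptors of natural killer cells. It was lowest in these 6 libraries too, but by less, at 50.6 to 70.8 FPKM against 90.8 to 180 FPKM in the others. Within A100-FMT of set 2, for example, it was 115, 58.3 and 180 FPKM. A100-FMT minus A10-FMT in set 1 was -0.85 (SE 0.33, limma adjusted p = 0.13), without overlap, where 5.66% of all genes were called.

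H2-T10, the near-copy of H2-T22, went the other way. In set 1 its level was 10.4 and 11.97 FPKM in Sa, 18.1, 11.8 and 17.4 FPKM in Con-FMT, 18.2, 13.6 and 18.2 FPKM in A10-FMT and 22.7, 18.8 and 23.3 FPKM in A100-FMT. Levels in set 2 were 14.3, 11.2 and 14.9 FPKM in Sa, 14.7, 24.02 and 14.1 FPKM in Con-FMT, 21.0, 21.2 and 13.9 FPKM in A10-FMT and 11.6, 21.7 and 5.94 FPKM in A100-FMT. The 6 libraries low in H2-T3 were the 6 highest in H2-T10, at 20.97 to 24.02 FPKM. The library highest in H2-T22, A100-FMT replicate 3 of set 2 at 43.2 FPKM, was the lowest in H2-T10.

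For H2-T3, H2-T22, H2-T23, H2-T24 and H2-Bl, differences from Sa were largest where a group held 2 of these 6 libraries, in A100-FMT of set 1 and A10-FMT of set 2. H2-T10 differed most in A100-FMT of set 1, but by 0.43 in A10-FMT of set 2 and by 0.53 in A10-FMT of set 1. In Sa vs. A100-FMT of set 1, where 35.2% of all genes were called, the log2 change was -3.57 for H2-T3 (SE 1.46, limma adjusted p = 0.063), -2.57 for H2-T22 (SE 1.03, limma adjusted p = 0.060) and -2.44 for H2-Bl (SE 1.13, limma adjusted p = 0.094). H2-T10 was 0.89 higher (SE 0.34, limma adjusted p = 0.051). These 4 genes did not overlap between the groups, nor did B2m, H2-T23 and H2-T24, and none passed the test. The share of all genes without overlap there was not counted, so this is no result about class I. At an unadjusted limma p under 0.05 there were 5475 of the 11337 genes tested. Without A100-FMT replicate 2 of set 1, the mouse of that group with the highest H2-T3, the changes were -4.91 for H2-T3, -3.39 for H2-T22 and -3.29 for H2-Bl, and these 3 genes were called (limma adjusted p = 0.027, 0.032 and 0.046). That fit keeps the A100-FMT mice with H2-T3 at 0.02 and 0.28 FPKM, and it keeps Sa replicate 3. As the genes were chosen on these values, the calls are no independent evidence. The share of all genes called in that fit is not given here. Without Sa replicate 3 of set 1, which leaves 1 Sa mouse in that set, the changes were -3.61 for H2-T3, -2.455 for H2-T22, -2.42 for H2-Bl and 0.98 for H2-T10, and none was called.

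In set 2, A10-FMT minus Sa was -2.59 for H2-Bl (SE 1.01, limma adjusted p = 0.25), without overlap, and -2.37 for H2-T3 (SE 1.30, limma adjusted p = 0.43), with overlap, where 0.423% of all genes were called. H2-T24 was 1.40 lower in A100-FMT than in Con-FMT of set 1 (log2 -1.40, SE 0.53, limma adjusted p = 0.32). For H2-T3, the difference between A100-FMT and A10-FMT had opposite signs in the sets, and set 2 minus set 1 was 5.02 (SE 1.84, limma adjusted p = 0.14), with 3.5% of all genes called. Summed T and intraepithelial lymphocyte markers were 71.5 to 77.7 FPKM in Sa and 43.3 to 81.2 FPKM in A100-FMT of set 1, and 53.3 to 95.3 FPKM in Sa and 39.3 to 46.2 FPKM in A10-FMT of set 2. Their part in these results was not tested.

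**Figure D2:**
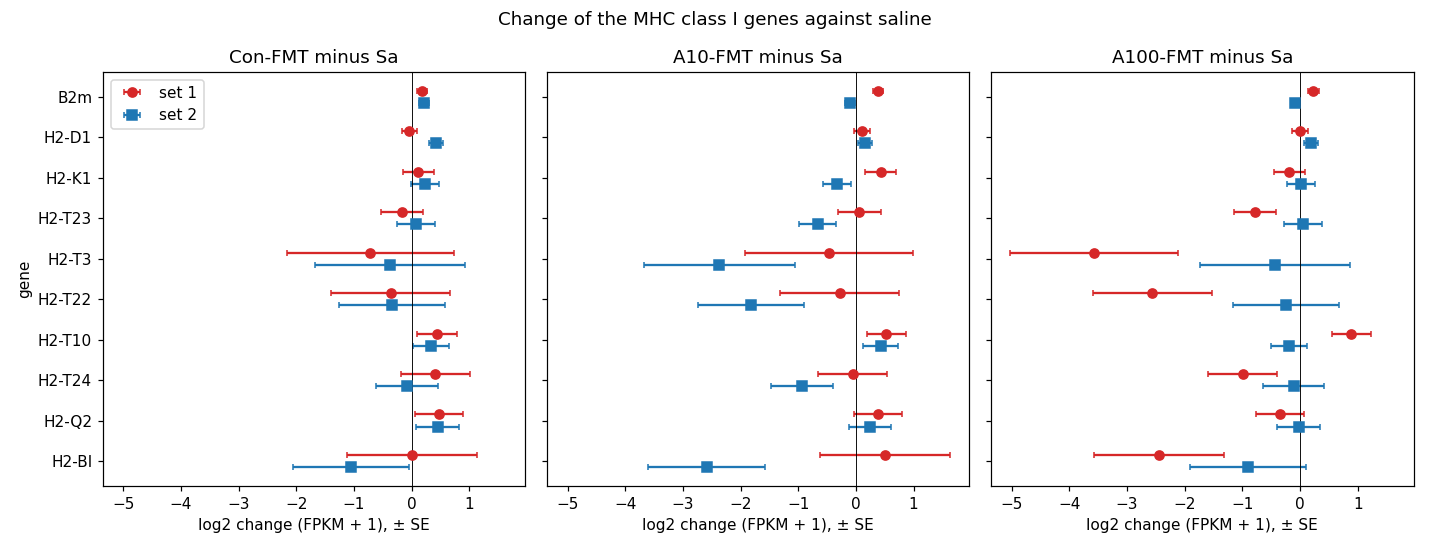
Log2 change of each gene (vertical axis) in Con-FMT, A10-FMT and A100-FMT against Sa, as points with the standard error from limma, in set 1 (circles) and set 2 (squares). B2m in A10-FMT of set 1, at 0.39, was the only point called, while H2-T3 in A100-FMT of set 1 was at -3.57 with a standard error of 1.46.

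The counts over all members were low in each comparison. With limma, 1 of 10 was called in Sa vs. A10-FMT of set 1, and 0 of 10 in the other comparisons within and over the sets. At an unadjusted p under 0.05 there were 6 members in Sa vs. A100-FMT of set 1, 5 in A10-FMT vs. A100-FMT and 5 in Con-FMT vs. A100-FMT of set 1, 4 in Con-FMT vs. A10-FMT of set 2 and 0 to 2 in each other comparison. Of the 11337 genes tested, 5475, 2624, 1282 and 1348 were under that p in the comparisons named, in the same order. Of all genes tested, 26.9% were called for Con-FMT against Sa in set 1 and 16.7% for A10-FMT against Con-FMT in set 1. In set 2 the background was 0.0353% for Con-FMT and likewise 0.0353% for A100-FMT against Sa, 0.379% in Con-FMT vs. A10-FMT, 0% in Con-FMT vs. A100-FMT (1270 genes at an unadjusted p under 0.05) and 0.00882% in A10-FMT vs. A100-FMT. Over both sets it was 0.75% for Con-FMT, 0.132% for A10-FMT and 0.891% for A100-FMT, each against Sa. The remaining differences between the sets called 0.00882% for Con-FMT and 26.8% for A100-FMT against Sa and 0% for A100-FMT against Con-FMT (1483 genes at an unadjusted p under 0.05), with 0 of 10 members in each. At an unadjusted p under 0.05, 7 members differed between the sets for A100-FMT against A10-FMT, beside 2126 of the 11337 genes tested, and 1 or 2 members in each of these 3.

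The median log2 change of the 10 members was -0.57 in Sa vs. A100-FMT of set 1, beside 0.052 over all genes tested, and 0.25 beside -0.012 in Sa vs. A10-FMT of set 1. In set 2 it was -0.50 for A10-FMT beside 0.029, and -0.099 for A100-FMT beside 0.030. Over both sets, B2m was 0.20 higher in Con-FMT than in Sa (SE 0.061, limma adjusted p = 0.14). Leaving out Sa replicate 1 of set 1 brought this to 0.26 and below the threshold (limma adjusted p = 0.0023), and leaving out Sa replicate 3 brought it to 0.14 (limma adjusted p = 0.70).

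The genes most like each member were named by the correlation of deviations from the group means over the 23 libraries, as a description without a test. For H2-T22 they were Gnl1 (r = 0.997), Abcf1 (0.996) and Ppp1r10 (0.991), for H2-T3 Tubb5 (0.967), Ppp1r10 (0.966) and Gnl1 (0.961), and for H2-T23 Prr3 (0.974), Ppp1r10 (0.950) and Gnl1 (0.943). For H2-Bl they were Ddr1 (0.977), H2-T22 (0.953) and Abcf1 (0.951), and for H2-T24 Mdc1 (0.940), H2-T23 (0.930) and H2-T22 (0.929). None of the genes named here besides the members is a class I gene: Tubb5 encodes a beta tubulin, Abcf1 a translation factor, Ddr1 a collagen receptor and Mdc1 a DNA damage protein. All lie on chromosome 17 within 347 kb of H2-T22.

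The likeness followed position. Of the 52 other tested genes within 1000 kb of H2-T22, 16 had an r above 0.8 with it (30.8%), against 0 of 10557 tested genes with a symbol elsewhere, where the highest r was 0.764. The 16 ran from Ddr1, 347 kb before H2-T22, to H2-T3, 148 kb after it, with Trim26 as the last at 808 kb. The stretch was not uniform, as Nrm (r = -0.060), Mrps18b (0.236) and Atat1 (-0.366) lie within it, and H2-T10, 79 kb after H2-T22, was at -0.864. H2-D1 (0.049), H2-K1 (0.130) and H2-Q2 (0.211), which lie outside it, had r values near 0. These neighbours and the window were chosen after their values were seen, and all points share their libraries. Elsewhere, 1 tested gene had an r below -0.8 with H2-T22, namely H2-T18 at -0.877. Left out of the window and counted elsewhere were 16 tested chromosome 17 genes that GENCODE does not hold at the same place.

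**Figure D3:**
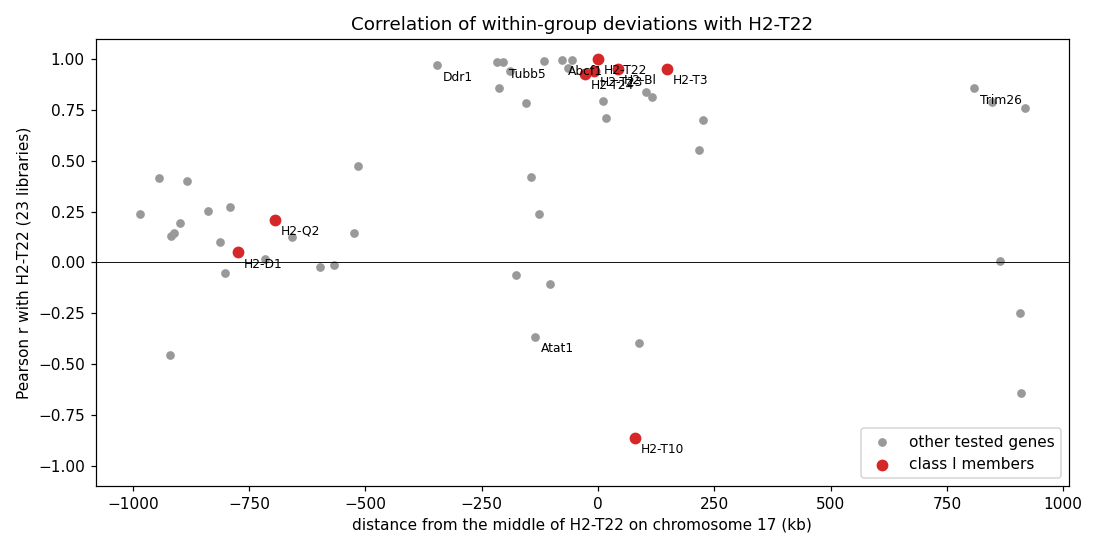
Pearson r with H2-T22 of tested genes within 1000 kb (vertical axis, deviations from group means over 23 libraries) by distance in kb from the middle of H2-T22 (horizontal axis), with class I members in red. Points above 0.8 gather between -347 and 148 kb, H2-T10 lies at -0.864, and H2-D1 and H2-Q2 lie near 0.

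The 6 libraries low in H2-T3 were also the 6 lowest in Gnl1, Abcf1, Ppp1r10, Tubb5, Prr3, Ddr1, Mdc1 and Ier3. Tubb5 was at 0.36 to 3.91 FPKM in them and at 30.0 to 126 FPKM in the others. Abcf1 was at 0.87 to 2.30 FPKM against 13.9 to 58.9 FPKM, and Gnl1 at 0 to 1.08 FPKM against 5.96 to 24.9 FPKM. The high r values span this gap, so r was also taken on log2(FPKM + 1) on either side of it. Between H2-T22 and Gnl1 it was 0.988 in the 6 libraries and 0.953 in the 17, between H2-T22 and H2-T3 0.980 and 0.673, and between H2-T22 and H2-T10 0.258 and -0.795. The sides of the gap are an order of the libraries by H2-T3, not groups of the study.

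H2-T10 was followed most closely by H2-T18 (r = 0.966), LOC547349 (0.798) and Slc6a9 (0.755). H2-T18 is another gene known to encode thymus leukemia antigen, which RefSeq places on chromosome 17 sequence outside the primary assembly. It was at 41.0 to 51.7 FPKM in the 6 libraries low in H2-T3 and at 10.8 to 36.5 FPKM in the others. The sum of H2-T3 and H2-T18 varied less than either gene. It ran from 41.7 to 66.9 FPKM, with a coefficient of variation of 13.04% over the 23 libraries, against 72.9% for H2-T3 and 32.9% for H2-T18. The sum of H2-T22 and H2-T10 was less even, at 22.7 to 49.1 FPKM (21.3%), and lay at 22.7 to 27.2 FPKM in the 6 libraries and at 29.2 FPKM or above in the others. Whether the mice differed in H2 sequence was not measured. The submitters' processing notes name mm10. H2-T18 has values, so sequence outside the primary assembly appears to have been used, but which sequence is not given. How reads were divided between H2-T3 and H2-T18 was not tested.

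**Figure D4:**
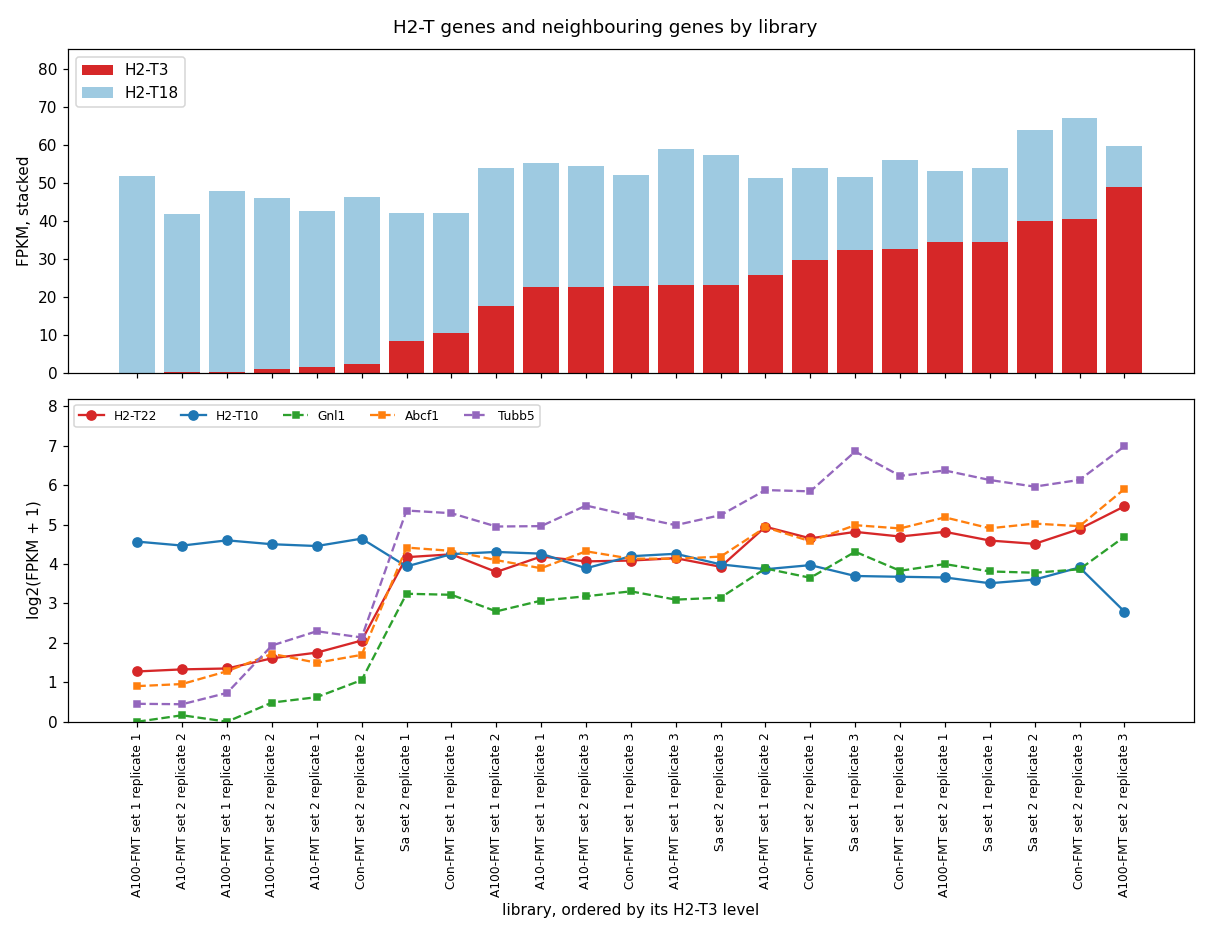
Libraries ordered by H2-T3, with stacked FPKM of H2-T3 and H2-T18 (upper panel) and log2(FPKM + 1) of H2-T22, H2-T10, Gnl1, Abcf1 and Tubb5 (lower panel). The stacked bars stay between 41.7 and 66.9 FPKM, while H2-T22 and its neighbours step up after the 6 leftmost libraries and H2-T10 declines.

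The classical genes were followed by genes of other chromosomes in most cases. Those most like B2m were Gm20594 (r = 0.820), Atp5j (0.815) and Ubap1 (0.774), those most like H2-D1 were Dpep1 (0.850), Rassf1 (0.798) and C2 (0.794), a complement gene of the H2 complex. For H2-K1 they were Nle1 (0.865), Cep85 (0.834) and Polr1e (0.823), and for H2-Q2 Sgpl1 (0.833), Kif13b (0.797) and Myzap (0.783). B2m, the light chain, had an r of 0.140 with H2-D1 and of -0.346 with H2-K1.

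The wider class I pathway was read from lists. Peptide loading and the immunoproteasome, which cut peptides and place them on class I molecules, had all 13 genes tested, led by Calr (mean 786 FPKM), Psme2 (476 FPKM) and Pdia3 (454 FPKM). In set 1, limma called 2 of them higher in Con-FMT (Canx and Erap1), 1 lower in A10-FMT (Calr), and 2 higher and 2 lower in A100-FMT (Canx and Pdia3 higher, Calr and Psme1 lower), each against Sa, all named after their values were seen. These 2, 1 and 4 of 13 stand beside 26.9%, 32% and 35.2% of all genes called. In set 2 and over both sets 0 were called against Sa. Without Sa replicate 3, which leaves 1 Sa mouse in set 1, none of these set 1 calls stayed. The share of all genes called in that fit is not given here.

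The regulators of class I transcription, 23 genes led by Irf1 (mean 117 FPKM), Irf8 (101 FPKM) and Ifngr2 (82.1 FPKM), gave calls in set 1 and over both sets. In set 1, 8 passed the test in Con-FMT (7 higher), 6 in A10-FMT (4 higher) and 9 in A100-FMT (8 higher) against Sa, beside 26.9%, 32% and 35.2% of all genes. These shares are near the background. Without Sa replicate 3 fewer were called in each, in a fit that leaves 1 Sa mouse in set 1. The share of all genes called in that fit is not given here. Over both sets, Nlrc5, the transactivator of class I genes, was 0.56 higher in Con-FMT (SE 0.11, limma adjusted p = 0.020) and 0.50 higher in A100-FMT (SE 0.11, limma adjusted p = 0.040) than in Sa. Stat2, which carries type I interferon signals to the nucleus, was 0.52 higher in Con-FMT (SE 0.082, limma adjusted p = 0.0062) and 0.42 higher in A100-FMT (SE 0.082, limma adjusted p = 0.040).

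Both were lowest in Sa replicate 3 of set 1, with 2.19 FPKM for Nlrc5 and 18.6 FPKM for Stat2. Without that library, Stat2 (0.36, limma adjusted p = 0.012) was still called in Con-FMT, and Nlrc5 was not (0.43, limma adjusted p = 0.18). In A100-FMT neither was called without it (limma adjusted p = 0.27 for Nlrc5 and 0.12 for Stat2). In set 2 alone, 0 of the 23 regulators were called against Sa in any FMT group.

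Of 29 other class I and class I-like genes, 19 were in the table and 9 were tested, led by Fcgrt (69.8 FPKM), the neonatal Fc receptor, H2-Q1 (42.4 FPKM) and H2-T18 (31.7 FPKM). Against Sa of set 1, 26.9%, 32% and 35.2% of all genes were called in Con-FMT, A10-FMT and A100-FMT. Of the 9, 0 were called in Con-FMT, 1 in A10-FMT (H2-Q1) and 3 in A100-FMT (H2-Q1, H2-Q4 and H2-T18), all higher. Without Sa replicate 3, which leaves 1 Sa mouse, H2-Q1 stayed called in A10-FMT, H2-Q10 joined it, and the A100-FMT calls ended. The share of all genes called in that fit is not given here. H2-Q1 was 1.01 higher in A10-FMT than in Sa of set 1 (SE 0.18, limma adjusted p = 0.0013), and 0.59 higher without Sa replicate 3 (limma adjusted p = 0.042). In set 2 it was at -0.62 (limma adjusted p = 0.097), and set 2 minus set 1 was called at -1.63 against Sa (limma adjusted p = 0.00041) and at -1.44 against Con-FMT (limma adjusted p = 0.00058). H2-T18 was 1.16 higher in A100-FMT than in Sa of set 1 (SE 0.37, limma adjusted p = 0.027), but was not called without that Sa library (1.15, limma adjusted p = 0.33). Its set 2 value was -0.51 (limma adjusted p = 0.54), and set 2 minus set 1 was -1.67 (limma adjusted p = 0.026), or -1.66 without that library (limma adjusted p = 0.11). Of the lymphocyte receptors and effectors that read class I molecules, 5 of 17 were tested, led by Gzma (48.9 FPKM), Gzmb (21.5 FPKM) and Cd3g (4.09 FPKM), and 0 were called against Sa. For A10-FMT against Con-FMT, Gzma and Gzmb, granzymes of cytotoxic lymphocytes, were called between the sets, with set 2 minus set 1 at -2.03 (limma adjusted p = 0.027) and -2.06 (limma adjusted p = 0.016). In set 2 alone they were at -1.59 and -1.68 (limma adjusted p = 0.13 and 0.067).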

How the data were processed

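Total RNA of small intestine was isolated with TRIzol and sequenced on an Illumina HiSeq. The authors deposited 1 table of FPKM values with 24 columns. Their methods name RPKM and DEGseq, and mm10 is named in the submitters' processing notes, while aligner, counter and annotation are not given in the sources used here. Read numbers are not in the table and depth was not estimated, so no counting error is given. Sums of FPKM per library were 556466 to 667957.

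Groups came from the treatment codes of the sample labels, of which IMC, IMA10 and IMA100 were read as the FMT groups from codes in the supplementary files, an inference. Values were analysed as log2(FPKM + 1) with limma 3.58.1 in R 4.3.3 (1 mean per group over all 23 libraries, eBayes with trend, two-sided, Benjamini-Hochberg adjustment over 11337 genes). Python 3.11.15 was used for correlations, and biopython 1.88 for the alignment. Named genes were the members, the 3 highest of each list, list genes called over both sets, and the 3 genes most like each member. Members and lists were chosen with earlier results of these data known. The method was tested on simulated data. Alternatives were array quality weights, a replicate block, a pseudocount of 0.1, no filter beyond a value above 0, quantile normalization, a fit of the compared groups only, the description's column and leaving out each library. No columns were identical. Exon positions were used only to place the coding bases of H2-T22 and H2-T10, and protein sequences were not used here. Values of 1 listed gene are not reported here.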

Additional observations from a re-analysis of the deposited data

Results flagged for a closer look

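The change of B2m with A10-FMT was called as different between set 1 and set 2, by a test of the difference itself (limma, interaction), but not under every alternative. Against Sa the difference, set 2 minus set 1, was -0.49 on the log2 scale, and against Con-FMT it was -0.52. A10-FMT had the highest B2m level of the groups of set 1 (mean 1558 FPKM) and the lowest of set 2 (mean 1215 FPKM). Both values share the A10-FMT libraries. With array quality weights the former was not called (-0.51, limma adjusted p = 0.296), and with quantile normalization the latter was not (-0.43, limma adjusted p = 0.0747).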

How the results depend on the processing

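With limma, the count of members called changed as follows. In Sa vs. A10-FMT of set 1 (1 member as reported) it was 3 with the description's column (B2m, H2-D1 and H2-K1). There it was 0 with array quality weights or the groups compared alone. It was 1 in Con-FMT vs. A10-FMT of set 1, of set 2, and in Con-FMT vs. A100-FMT of set 2, with the description's column or array quality weights (0 as reported). In A10-FMT vs. A100-FMT of set 1 it was 1 with these and with the replicate block. For A100-FMT against Sa in set 1 it was 1 with a pseudocount of 0.1 or quantile normalization and 5 with the replicate block. Quantile normalization also gave 1 for Con-FMT against Sa in set 1. Differences between the sets (2 called as reported) gave 6 with the description's column (of B2m, H2-K1, H2-T23 and H2-Bl). They gave 5 with the replicate block and 5 with array quality weights. Leaving out each library gave 0 to 1 in Sa vs. A10-FMT of set 1 and over both sets and in Sa vs. Con-FMT of set 1 and over both sets, 0 to 3 for A100-FMT against Sa in set 1, and 2 to 9 for the differences between the sets, the 9 without A100-FMT replicate 2 of set 2. The shares of all genes called under these alternatives are not given here, so these counts are no result about class I. The cause of these changes was not tested. No log2 change named for a member reversed under these alternatives.

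The labels do not say whether same-numbered libraries were paired, and they were treated as unpaired. Of 33 same-numbered pairs, 10 had deviations with r over 0.1 (range -0.352 to 0.319). Differently numbered pairs were not set beside them, so these values cannot exclude pairing. The replicate block was an alternative only.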
